A study of Macaca mulatta with 33 samples.

Results

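Genes of antigen processing and presentation were followed through liver RNA-seq of 33 juvenile macaques. They were chosen by name as a list of 10: B2M, TAP1, TAP2, TAPBP, PSMB8, PSMB9, NLRC5, CIITA, CD74 and CTSS. Of these, 8 were found by symbol among the 34882 genes of the expression table, and all 8 passed the filter of a mean FPKM of at least 0.5 that left 12497 genes for testing. TAP1 and TAP2, the subunits of the peptide transporter, were not matched to a row and were not analysed here. The animals were 3 years old and fell into 4 groups, written maternal diet/postweaning diet, where WSD is a western-style diet and CD a control diet. WSD/CD animals (n = 10) had WSD-fed mothers and were weaned to CD, CD/WSD animals (n = 6) had CD-fed mothers and were weaned to WSD, WSD/WSD animals (n = 7) met WSD on both sides of weaning, and CD/CD animals (n = 10) met CD throughout. Mothers received their diet through pregnancy and nursing. The organism field names the rhesus macaque and the design text the Japanese macaque. The labels used here state neither sex nor kinship.

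Antigen presentation shows fragments of a cell's proteins to T cells. In the class I route, proteasomes cut cytosolic proteins, a transporter carries the peptides into the endoplasmic reticulum, and tapasin helps to load them onto class I molecules, which need beta-2-microglobulin to reach the surface of nearly all nucleated cells. In the class II route, macrophages, dendritic cells and B cells load peptides from engulfed material, with the invariant chain guarding the class II groove until cathepsins degrade it. Interferon gamma raises both routes, and in the liver Kupffer cells, the resident macrophages, and sinusoidal endothelial cells take part in them beside the hepatocytes that make up most of the tissue.

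Each animal gave 1 library, and expression was given as FPKM, fragments scaled by transcript length and by the mapped fragments of the library. Levels of different genes can be set beside each other only roughly on this scale. Between 15519 and 17298 genes had an FPKM above 0 per library. FPKM carries no counts, and the relative depth read from the lowest values ranged roughly from 0.523 to 1.68. The 7 hepatocyte markers summed to between 5792 and 31573 FPKM, so every library carried the labelled tissue's defining transcripts. Transcripts of the mitochondrial genome took 1.43% to 16.1% of summed FPKM in WSD/CD libraries, 1.62% to 4.41% in CD/WSD, 1.34% to 2.64% in WSD/WSD and 1.33% to 3.46% in CD/CD. The animal numbers begin with 30 (14 animals), 31 (6), 33 (8) or 34 (5). The labels do not explain these number series, and they are unevenly spread: both groups weaned to WSD held series 30 and 31, CD/CD held 4 animals of series 30, 1 of series 31 and 5 of series 33, and all 5 animals of series 34 were WSD/CD.

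Across the 33 libraries the members spanned nearly 3 orders of magnitude in level. B2M averaged 554 ± 195 FPKM (SD, n = 33), above 99.4% of tested genes, and CD74 averaged 274 ± 118 FPKM, above 98.7%. TAPBP followed at 16.01 ± 4.92 FPKM. CTSS stood at 4.49 ± 2.25 and PSMB8 at 3.40 ± 1.19 FPKM. NLRC5 at 1.26 ± 0.963, PSMB9 at 1.18 ± 0.475 and CIITA at 0.703 ± 0.344 FPKM were the low members, and both master regulators were thus among them. Animal-to-animal variation was of ordinary size for most members, with a coefficient of variation between 30.8% (TAPBP) and 50.2% (CTSS) against a median of 35.2% over tested genes. NLRC5 was the exception at 76.3%, above 93.7% of tested genes.

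Among the class I members, B2M (ENSMMUG00000060797), the light chain of class I molecules, had a lowest, median and highest level of 279, 554 and 1005 FPKM in WSD/CD livers, 339, 554 and 776 FPKM in CD/WSD livers, 368, 583 and 895 FPKM in WSD/WSD livers, and 334, 408 and 927 FPKM in CD/CD livers. The CD/CD median was the lowest of the 4, but the highest CD/CD animal, replicate 5, stood far above the next at 623 FPKM, and all groups overlapped. TAPBP (ENSMMUG00000003875), which encodes tapasin, had 7.35, 17.8 and 21.6 FPKM in WSD/CD livers, 9.83, 16.2 and 18.5 FPKM in CD/WSD livers, 8.97, 16.03 and 26.8 FPKM in WSD/WSD livers, and 9.96, 13.8 and 24.2 FPKM in CD/CD livers. These ranges lay almost on top of each other.

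PSMB8 (ENSMMUG00000011301) and PSMB9 (ENSMMUG00000011304) encode catalytic subunits of the immunoproteasome, the form induced by interferon gamma. PSMB8 had 1.66, 3.74 and 5.04 FPKM in WSD/CD livers, 2.10, 3.09 and 3.83 FPKM in CD/WSD livers, 2.51, 3.20 and 4.34 FPKM in WSD/WSD livers, and 1.65, 3.09 and 7.03 FPKM in CD/CD livers. PSMB9 had 0.354, 1.36 and 1.96 FPKM in WSD/CD livers, 0.673, 1.05 and 1.57 FPKM in CD/WSD livers, 0.752, 1.06 and 2.15 FPKM in WSD/WSD livers, and 0.508, 1.02 and 2.13 FPKM in CD/CD livers. For both subunits the 2 groups weaned to CD had the wider spread, and no group stood apart. In the RefSeq annotation of another macaque assembly, PSMB9 is the direct neighbour of TAP1 and PSMB8 that of TAP2.

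NLRC5 (ENSMMUG00000000769), the transactivator of class I genes, had 0.2996, 1.28 and 4.70 FPKM in WSD/CD livers, 0.569, 0.803 and 1.76 FPKM in CD/WSD livers, 0.403, 0.883 and 1.26 FPKM in WSD/WSD livers, and 0.634, 1.05 and 2.20 FPKM in CD/CD livers. Its wide spread came from 2 animals: WSD/CD replicates 1 and 2, the only WSD/CD animals of series 30, had 4.21 and 4.70 FPKM, while none of the other 31 libraries exceeded 2.30 FPKM. In those 2 livers B2M stood at 776 and 1005 FPKM and CIITA at 1.16 and 1.39 FPKM, so replicate 2 was among the 3 highest libraries for 7 of the 8 members and replicate 1 for NLRC5 alone. The 4 neutrophil markers summed to 18.2 and 19.6 FPKM in the 2 animals, against 0.476 to 3.24 FPKM in the other WSD/CD livers, and the 9 T and NK cell markers to 13.9 and 15.2 FPKM, against 4.39 to 14.9 FPKM. The part of these cells in the NLRC5 level was not tested.

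Among the class II members, CIITA (ENSMMUG00000007777), the transactivator that switches on class II genes, had 0.338, 0.743 and 1.65 FPKM in WSD/CD livers, 0.275, 0.533 and 0.853 FPKM in CD/WSD livers, 0.317, 0.847 and 0.961 FPKM in WSD/WSD livers, and 0.334, 0.541 and 1.40 FPKM in CD/CD livers. CD74 (ENSMMUG00000009113), the invariant chain, had 107, 272 and 518 FPKM in WSD/CD livers, 129, 226 and 319 FPKM in CD/WSD livers, 148, 276 and 348 FPKM in WSD/WSD livers, and 127, 316 and 613 FPKM in CD/CD livers. Neither gene separated any pair of groups. CTSS (ENSMMUG00000010670), the cathepsin that degrades the invariant chain, had 1.41, 4.14 and 8.11 FPKM in WSD/CD livers, 1.44, 4.28 and 8.24 FPKM in CD/WSD livers, 2.35, 6.65 and 8.46 FPKM in WSD/WSD livers, and 2.06, 3.40 and 6.90 FPKM in CD/CD livers. CTSS fell into a high and a low cluster in both groups weaned to WSD, which the number series separated, as described further on.

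**Figure D1:**
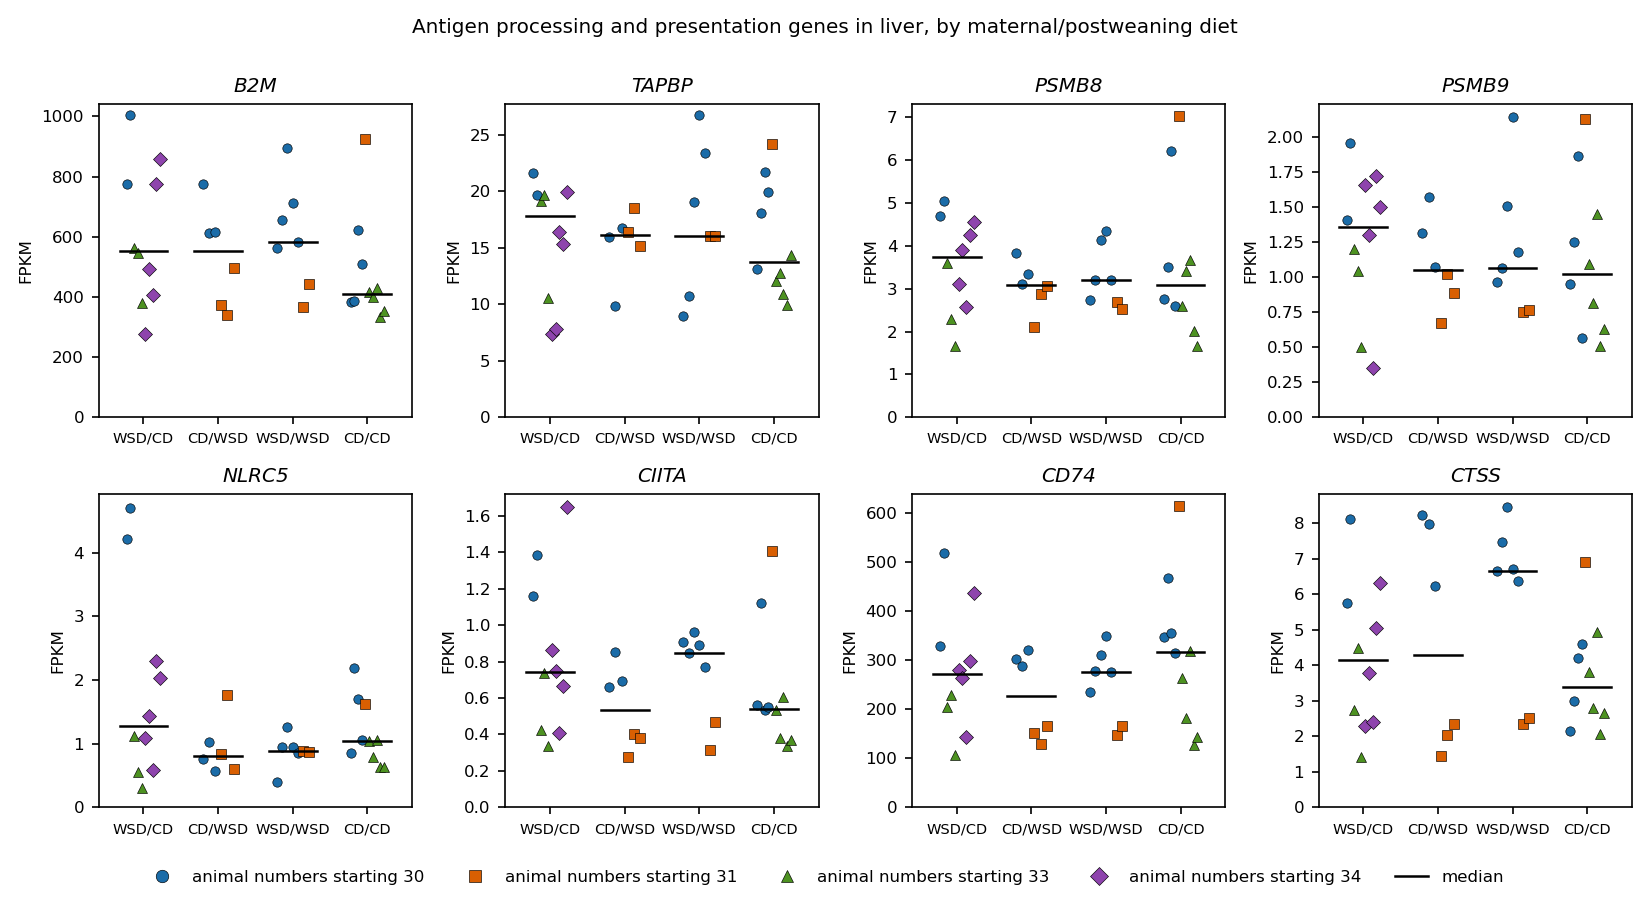
FPKM of the 8 measured members in each liver (points, 1 per animal; linear axes from 0), by maternal/postweaning diet, with horizontal lines for group medians and colour and shape for the number series. The groups overlap for every member, the 2 highest NLRC5 values (4.21 and 4.70 FPKM) are WSD/CD animals of series 30, and in both groups weaned to WSD the series 31 animals lie at the bottom for CTSS, CD74 and CIITA.

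Ordered by mean level, the groups formed no common sequence, and for none of the 8 members did neighbouring groups in the order differ by more than the larger of their SDs. WSD/CD had the highest mean for B2M, PSMB8, PSMB9, NLRC5 and CIITA, WSD/WSD for TAPBP and CTSS, and CD/CD for CD74. CD/WSD had the lowest mean for TAPBP, PSMB8, PSMB9, CIITA and CD74.

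The comparison of WSD/CD with CD/CD asks what a maternal WSD leaves behind in offspring that never ate it after weaning. No member passed in it: 0 of 8 had an adjusted p under 0.05 by limma with Benjamini-Hochberg adjustment, also 0 at an unadjusted p under 0.05, while 9.55% of all tested genes passed. That share was unstable: 0 genes passed with only the 2 groups in the fit, with the mitochondrial share as a covariate or without series 34. Leaving out 1 library moved the 1193 genes called by over 1.5 times for 11 libraries, from 201, 210 and 231 genes without WSD/CD replicates 7, 9 and 6, over 446 to 721 without CD/CD replicates 4, 6, 7 or 10 or WSD/CD replicate 10, to 2186, 2227 and 2329 without WSD/CD replicates 5, 8 and 4. The member nearest to the threshold was B2M, at 608 ± 235 FPKM in WSD/CD and 477 ± 179 FPKM in CD/CD (SD, n = 10 each), a log2 fold change of 0.32 (95% interval -0.13 to 0.76, limma adjusted p = 0.321). NLRC5 had 0.26 (interval -0.16 to 0.67), CIITA 0.16 (-0.10 to 0.41) and CD74 -0.14 (-0.70 to 0.43) on the log2 scale. The median log2 fold change was 0.10 over the members and -0.15 over all tested genes. Within series 30, where 2 WSD/CD animals met 4 CD/CD animals, NLRC5 was called higher (log2 1.19, adjusted p = 0.0132, 2.92% of tested genes called), whereas within series 33 it had -0.17 (adjusted p = 1), and without those 2 WSD/CD animals -0.02 (adjusted p = 0.942).

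Postweaning WSD in the offspring of CD-fed mothers was read from CD/WSD against CD/CD. Here too 0 of 8 members passed by limma (0 at an unadjusted p under 0.05), in a comparison in which 0.024% of tested genes passed, or 3 genes, with 0 to 136 genes on leaving out 1 library (136 without CD/WSD replicate 4). CD74 had the lowest adjusted p, at 226 ± 85.7 FPKM in CD/WSD (SD, n = 6) and 313 ± 149 FPKM in CD/CD (n = 10), a log2 fold change of -0.41 (interval -1.06 to 0.24, adjusted p = 0.538). B2M had 0.18 (-0.34 to 0.69) and CTSS 0.14 (-0.48 to 0.76). The median was -0.03 over the members and 0.03 over all tested genes. Alternative fits called members in different directions. With sample weights B2M and CTSS were called higher, with 42.4% of tested genes called. With series as a factor CD74 (-0.78, adjusted p = 0.0303) and NLRC5 (-0.60, adjusted p = 0.0329) were called lower, with 34.2% of tested genes called, and within series 30 alone CTSS was called higher (0.95, adjusted p = 0.00216), with 39.1% called.

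WSD/WSD against CD/CD sets both exposures against none. Again 0 of 8 members passed by limma (0 at an unadjusted p under 0.05), against 16.7% of tested genes. The 2083 genes behind that share became 836 to 1317 on leaving out any of WSD/WSD replicates 1 to 5 or CD/CD replicates 2, 3 or 5, the lowest being without WSD/WSD replicate 4. CTSS came nearest, at 5.79 ± 2.39 FPKM in WSD/WSD (SD, n = 7) and 3.707 ± 1.4998 FPKM in CD/CD (n = 10), a log2 fold change of 0.49 (interval -0.10 to 1.08, adjusted p = 0.23). B2M had 0.36 (-0.13 to 0.85), with 603 ± 175 FPKM in WSD/WSD and 477 ± 179 FPKM in CD/CD. CD74 had -0.22 (-0.84 to 0.40). The median was 0.08 over the members and 0.10 over all tested genes. Within series 30 alone, CTSS (0.89, adjusted p = 0.00111) and B2M (0.53, adjusted p = 0.0336) were called higher, with 44.7% of tested genes called, while with series as a factor CD74 (-0.71, adjusted p = 0.0248) and NLRC5 (-0.61, adjusted p = 0.0152) were called lower, with 44.2% called. Sample weights called B2M and CTSS higher, with 39.3% called.

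Maternal WSD among offspring weaned to WSD, read from WSD/WSD against CD/WSD, gave 0 of 8 members and 0% of tested genes (307 genes and 0 members at an unadjusted p under 0.05). CTSS had the largest estimate, 0.35 (interval -0.31 to 1.02, limma adjusted p = 0.962), and 7 of the 8 estimates were positive, NLRC5 being the exception at -0.02. The median was 0.13 over the members and 0.08 over all tested genes.

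Postweaning WSD in the offspring of WSD-fed mothers was read from WSD/WSD against WSD/CD, in which 44% of all tested genes and 0 of the 8 members passed (0 members at an unadjusted p under 0.05). The share over all genes was 0.096% with the mitochondrial share as a covariate and 3.46% without series 34, again with 0 members called. NLRC5 came nearest to the threshold, at 0.880 ± 0.252 FPKM in WSD/WSD (SD, n = 7) and 1.83 ± 1.52 FPKM in WSD/CD (n = 10), a log2 fold change of -0.43 (interval -0.89 to 0.02, limma adjusted p = 0.11). CTSS had 0.39 (-0.21 to 0.98) and the other 6 members lay between -0.08 and 0.13. The median was -0.05 over the members and 0.26 over all tested genes. NLRC5 alone of the 8 was called lower in 5 alternative fits, in which 35.5% to 46.8% of tested genes were called, and without WSD/CD replicate 5 (-0.54, adjusted p = 0.0358, 5960 genes called), but without WSD/CD replicates 1 and 2 it had -0.16 (adjusted p = 0.484).

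The interaction of both diets, the postweaning difference in the offspring of WSD-fed mothers minus that in the offspring of CD-fed mothers, gave 0 of 8 members and 0% of tested genes by limma (2453 genes and 0 members at an unadjusted p under 0.05). CD74 had the largest estimate, 0.33 (interval -0.57 to 1.23), and NLRC5 the most negative, -0.28 (-0.93 to 0.38), with adjusted p of 0.665 and 0.615. The intervals of CD74 and CTSS reached beyond 1 log2 unit. Median-of-ratios scaling moved the median of all tested genes to -0.01 in WSD/CD against CD/CD, -0.01 in WSD/WSD against CD/CD, and 0.02 in the interaction, shifts of over 0.1 on the log2 scale, and likewise in WSD/WSD against WSD/CD. The comparisons against CD/CD share its libraries and are not independent of each other.

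**Figure D2:**
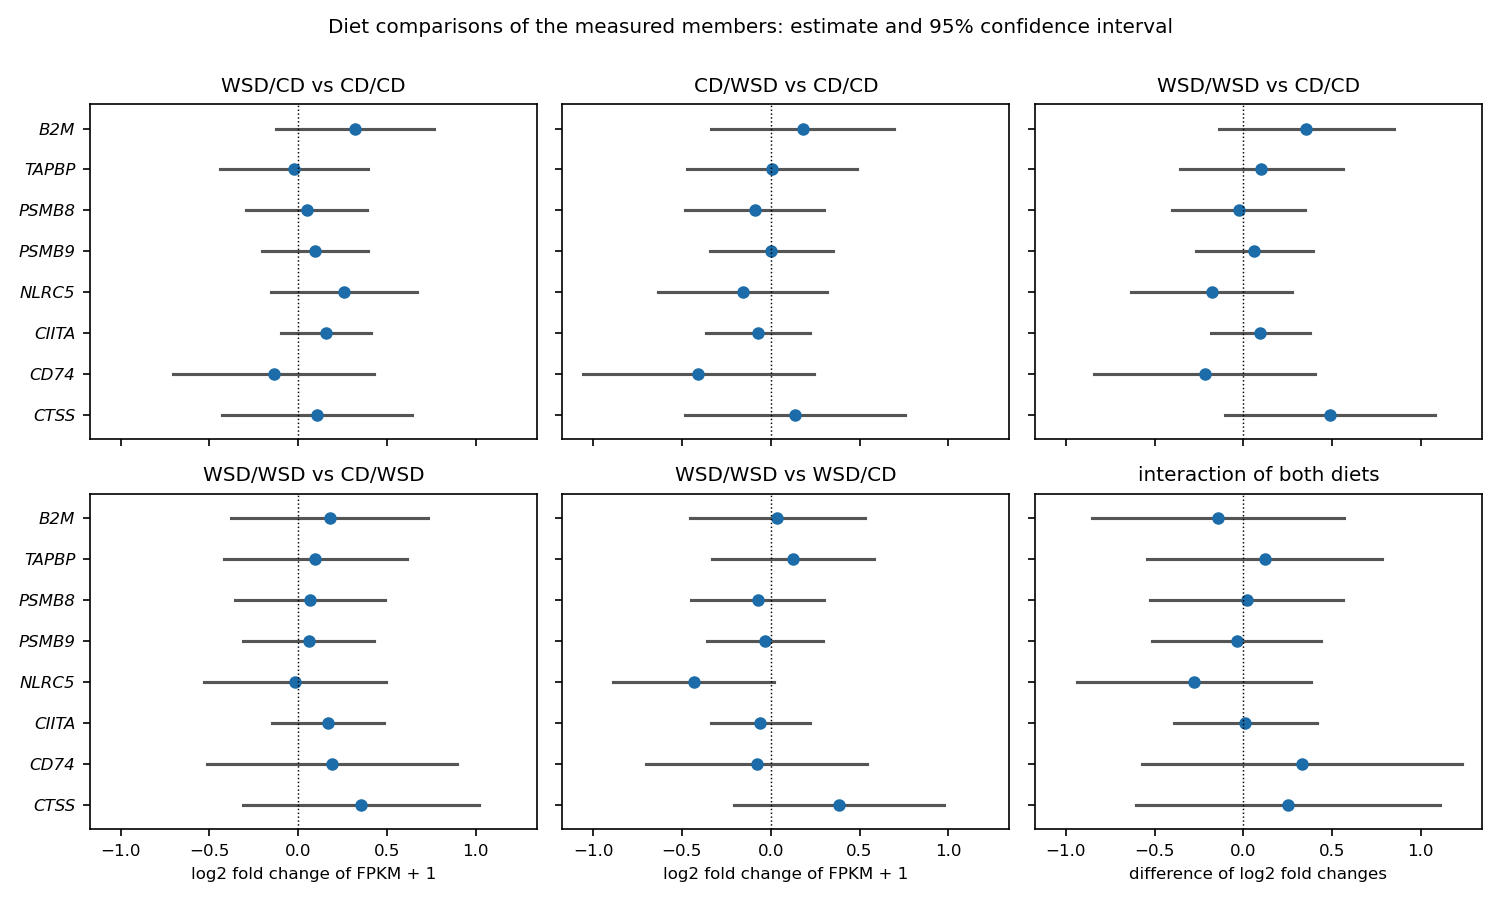
Log2 fold change of FPKM + 1 (points) with its 95% confidence interval (lines) for the 8 measured members in the 5 pairwise diet comparisons, each titled with the group on top first, and in the interaction. Every interval crosses 0 (dotted line), and NLRC5 in WSD/WSD against WSD/CD comes nearest to leaving it (-0.89 to 0.02).

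The clearest difference among the members lay inside the groups weaned to WSD. In these 13 animals, 8 of series 30 and 5 of series 31, a comparison of the number series with maternal diet kept in the model was added after the data had been seen. It called 5 of the 8 members higher in series 30, with 25.6% of tested genes called. All 3 class II members were among them, as were B2M and PSMB9. CTSS had 6.22, 7.08 and 8.46 FPKM (lowest, median and highest) in series 30, against 1.44, 2.04, 2.34, 2.35 and 2.53 FPKM in the series 31 animals, a log2 fold change of 1.39 ± 0.114 (SE, limma adjusted p = 3.38e-06). CD74 had 236, 294 and 348 FPKM in series 30, against 129, 148, 152, 165 and 165 FPKM in series 31, a log2 fold change of 0.95 ± 0.112 (adjusted p = 6.33e-05). For both genes every series 30 animal stood above every series 31 animal, whichever diet the mother had eaten.

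CIITA had 0.662, 0.850 and 0.961 FPKM in series 30, against 0.275, 0.317, 0.382, 0.405 and 0.470 FPKM in series 31, a log2 fold change of 0.39 ± 0.0574 (SE, limma adjusted p = 0.000371). B2M had 561, 636 and 895 FPKM in series 30, against 339, 368, 375, 443 and 495 FPKM in series 31, a log2 fold change of 0.74 ± 0.145 (adjusted p = 0.00306). These 2 genes did not overlap between the series either, which makes 4 of the 8 members. The share of all tested genes without such overlap was not counted, so this count has no background beside it. By limma 25.6% of all tested genes were called between the series. PSMB9 overlapped, with 0.966 to 2.15 FPKM in series 30 and 0.673 to 1.02 FPKM in series 31, and its log2 fold change of 0.36 ± 0.114 (adjusted p = 0.0348) was lost with median-of-ratios scaling (0.23, adjusted p = 0.145), which itself shifted the median of all tested genes from 0.15 to -0.03. PSMB8 had 0.30 (adjusted p = 0.0658), TAPBP -0.11 (adjusted p = 0.775) and NLRC5 -0.10 (adjusted p = 0.657), so tapasin and the class I transactivator were not called. Leaving out each of the 13 animals in turn kept CTSS, CD74, CIITA and B2M called every time, with 2278 to 3649 of all tested genes called. PSMB9 was not called without CD/WSD replicates 1, 2 or 4 or WSD/WSD replicates 3, 6 or 7, and PSMB8 was called without CD/WSD replicate 6 or WSD/WSD replicate 1.

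Markers of several other liver cell types moved with the same split, but not of all. Of 10 tested Kupffer cell markers 8 were higher in series 30, among them the scavenger receptor CD163 (log2 2.52, limma adjusted p = 7.07e-07) and CD68 (2.09, adjusted p = 1.67e-06), and the whole list of 11 summed to 679 to 949 FPKM in series 30, against 185 to 339 FPKM in series 31. Of 8 endothelial markers 7 were higher, led by CDH5 (2.18, adjusted p = 3.78e-08), with sums of 102 to 139 FPKM in series 30 and 23.7 to 29.4 FPKM in series 31. Of 7 tested T and NK cell markers 4 were higher, and the list of 9 summed to 6.68 to 13.6 FPKM in series 30 and 3.10 to 7.45 FPKM in series 31, with CD3G and GZMA at 0 in some livers of each. The 8 dendritic cell markers summed to 2.70 to 3.87 FPKM in series 30 and 2.25 to 2.48 FPKM in series 31, and 0 of the 3 tested were called. Of 2 tested B cell markers MS4A1 was higher (0.46, adjusted p = 0.0197), and the list of 7 summed to 2.04 to 3.15 FPKM in series 30 and 0.698 to 1.97 FPKM in series 31, with TNFRSF13C at 0 in some livers of each. Hepatocyte markers summed to 21159 to 31573 FPKM in series 30 and 20204 to 30914 FPKM in series 31, and of 7 only TTR was called, lower by a log2 fold change of -0.50 (adjusted p = 0.00711). Of 3 tested neutrophil markers 2 were higher (median log2 1.23), and of 8 stellate cell markers 3 were (median 0.20). Of 4 tested cholangiocyte markers 0 were called and 0 estimates were positive (median -0.28). Mitochondrially encoded genes were lower for 5 of 12, with 0 estimates positive (median -0.35). In bulk liver fewer cells of a type and less RNA per cell cannot be told apart, and the part of these cells in the members' difference was not tested.

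The rest of both pathways showed which genes shared the split. Of all tested genes 25.6% were called between the series, 2882 higher in series 30 and 319 lower. Calls were thus mostly higher over all genes as well. Of 13 other class I pathway genes measured, 5 were higher in series 30 and 0 lower: the trimming peptidase ERAP1 (log2 1.02, limma adjusted p = 0.00104), the chaperone CANX (0.55, adjusted p = 0.0215), and the class I heavy chain genes MAMU-E (1.47, adjusted p = 3.54e-06), MAMU-F (0.74, adjusted p = 0.0133) and Mamu-B (0.90, adjusted p = 0.0107). Of 10 other class II pathway genes 5 were higher and 0 lower: the class II chains MAMU-DRA (1.77, adjusted p = 1.95e-05) and MAMU-DRB1 (1.29, adjusted p = 3.77e-05), MAMU-DMA (0.99, adjusted p = 1.31e-05), MAMU-DOA (1.51, adjusted p = 0.000255) and the protease CTSL (0.43, adjusted p = 0.0364). MHC genes are close copies of each other that can share reads, so their separate values are uncertain, and the gene listed as MAMU-DMA carries another symbol in the gene name table. Of 10 shared regulators of MHC promoters 5 were higher, led by IRF8 (1.31, adjusted p = 5.46e-05), IRF1 (0.84, adjusted p = 0.000429), RFX5 (0.49, adjusted p = 0.00414) and CREB1 (0.46, adjusted p = 0.0107). The co-stimulatory ligand CD86 (1.35, adjusted p = 7.38e-06) was higher with the other 2 tested genes of its list, and of 24 tested interferon response genes 9 were higher and 0 lower. The 3 constitutive proteasome subunits PSMB5, PSMB6 and PSMB7 were not called.

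In the CD/CD group series 30 and 31 did not go in the same order, with 1 animal in series 31. The 4 CD/CD animals of series 30 had 2.14, 2.99, 4.19 and 4.59 FPKM of CTSS, close to the 2.06 to 4.93 FPKM of the 5 animals of series 33, and the only CD/CD animal of series 31, replicate 5, had 6.90 FPKM. That animal had the highest CD/CD level for 7 of the 8 members, NLRC5 being the exception, and the highest of all 33 libraries for PSMB8 (7.03 FPKM) and CD74 (613 FPKM). Its Kupffer cell markers summed to 927 FPKM, against 411 to 658 FPKM in the other CD/CD livers, and its endothelial markers to 74.8 FPKM, against 27.5 to 67.8 FPKM. The part of these cells in its levels was not tested. Leaving it out of the diet comparisons still gave 0 of 8 members called in each of the 6.

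The postweaning difference could be set side by side in the 2 series. In series 30, CTSS had a log2 fold change of 0.95 for CD/WSD and 0.89 for WSD/WSD against CD/CD, while in series 31 it had -1.44 and -1.20 against the lone CD/CD animal. CD74 had -0.28 and -0.35 in series 30, and -2.04 and -1.96 in series 31. A model of both series, added after the data had been seen, gave an adjusted p under 0.05 for the difference of the postweaning effects (series 30 minus series 31) in 4 of 8 members by limma, with 7.8% of tested genes called: CTSS 2.24 (adjusted p = 0.000207), CD74 1.69 (adjusted p = 0.000455), B2M 1.73 (adjusted p = 0.00384) and CIITA 0.91 (adjusted p = 0.00283). Since the CD/CD side of series 31 is 1 animal, high for 7 of the 8 members, these values set that library against the rest and do not show that the postweaning effect differs between the series.

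**Figure D3:**
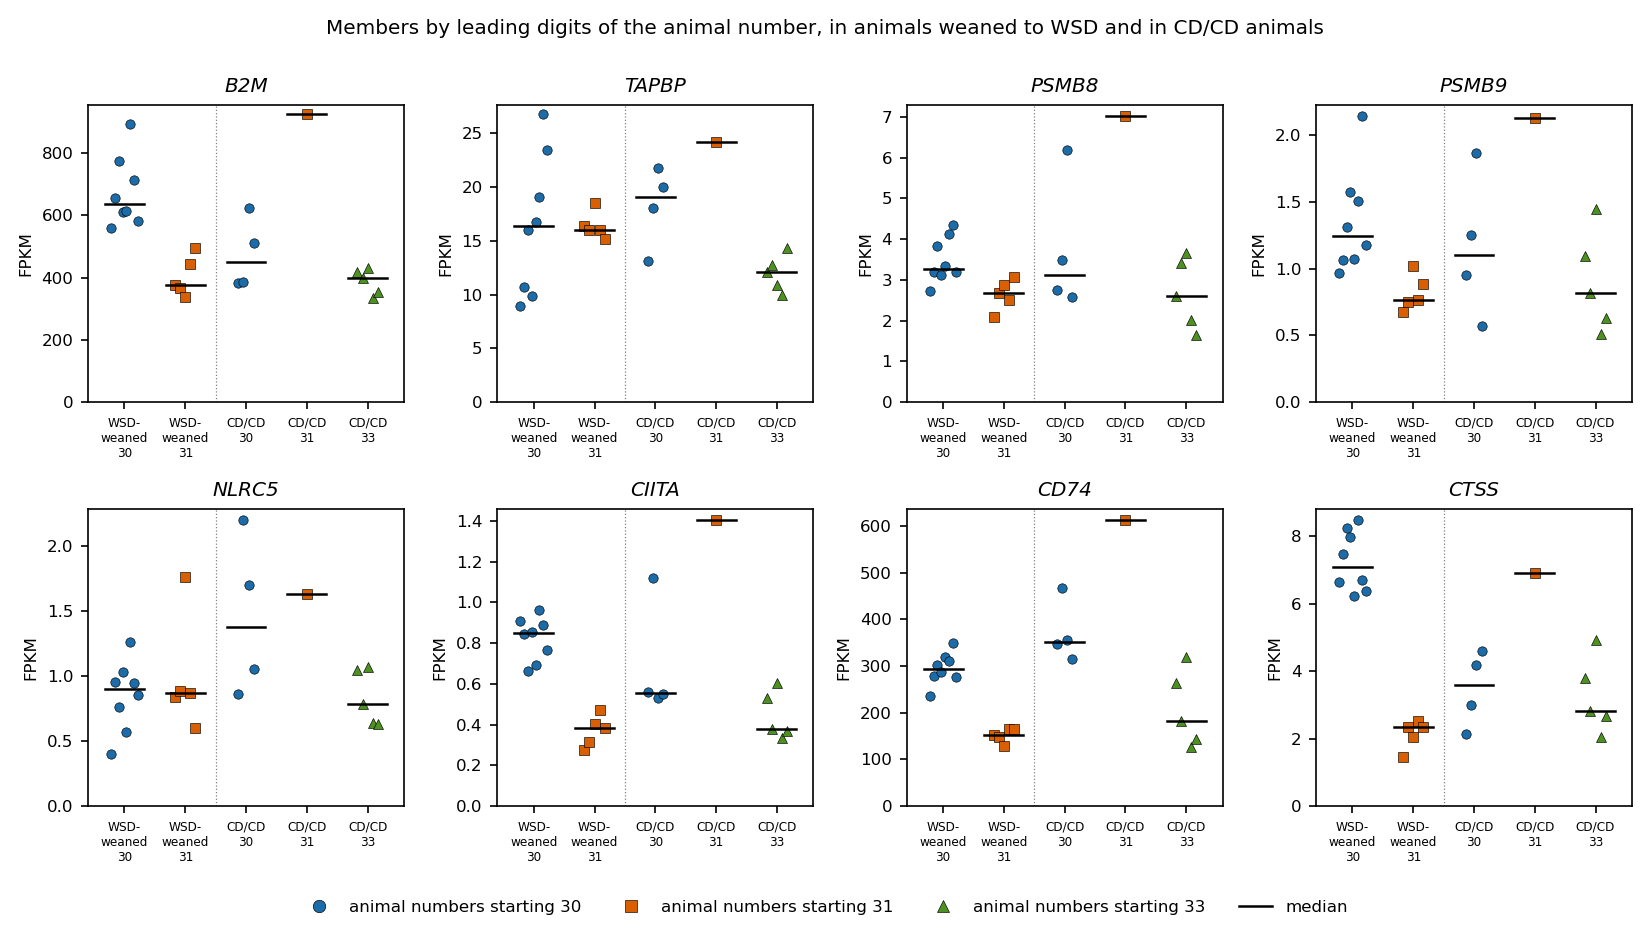
FPKM of the 8 measured members (points, 1 per animal; linear axes from 0) in animals weaned to WSD, left of the dotted line, and in CD/CD animals, right of it, by the leading digits of the animal number, with medians as horizontal lines. Series 30 and 31 do not overlap among animals weaned to WSD for CTSS, CD74, CIITA and B2M, and the lone CD/CD animal of series 31 is high for 7 of the 8 members. The share of all tested genes without such overlap was not counted.

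The members varied together from animal to animal. All 28 pairs had a positive Spearman's rho over the 33 libraries, from 0.28 (NLRC5 and CTSS) to 0.87 (B2M and CTSS), with a median of 0.66. TAPBP stood most apart, with a rho no higher than 0.51 to any other member. For 4 pairs a permutation test with 100000 resamples was run on log2(FPKM + 1), two-sided and adjusted over the 4, the smallest p it can give being 1e-05. Of these, 3 pairs were added after the data had been seen, because TAP1 and TAP2 were not analysed here. PSMB8 and PSMB9 followed each other closely (r = 0.85, rho = 0.87, permutation p = 1e-05 for both, adjusted 1.33e-05 and 2e-05). The relation was also seen without the 2 libraries farthest from the median of PSMB8 (r = 0.82). It was seen within series 30 (r = 0.82, n = 14) and 33 (r = 0.81, n = 8). Within series 31 r was 0.98 (n = 6) and rho 0.89 (permutation p = 0.0335, adjusted 0.134). That series holds CD/CD replicate 5, with 7.03 FPKM of PSMB8 against at most 3.06 FPKM in its other animals. Series 34, with 5 animals, was too small for a value.

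CIITA and CD74, the class II transactivator and a gene it controls, had r = 0.84 and rho = 0.79 (permutation p = 1e-05 for both, adjusted 1.33e-05 and 2e-05), and r = 0.82 without the 2 farthest libraries. Within series 30 the relation was not called (r = 0.44, permutation p = 0.116, n = 14). Within series 31 r was 0.97 (permutation p = 0.0662, n = 6) and rho 0.49 (permutation p = 0.357). Within series 33 r was 0.80 (permutation p = 0.0172, n = 8). CD74 and CTSS had r = 0.72 and rho = 0.65 over all libraries (permutation p = 1e-05 and 9e-05, adjusted 1.33e-05 and 0.00012), 0.67 without the 2 farthest, but -0.31 within series 30 (permutation p = 0.274, n = 14), so their relation did not hold there. Within series 31 r was 0.95 (permutation p = 0.0467, adjusted 0.0883, n = 6) and rho 0.60 (permutation p = 0.243). Within series 33 r was 0.94 (permutation p = 0.00076, adjusted 0.00304, n = 8). The series 31 values include CD/CD replicate 5, the highest animal of that series for CIITA, CD74 and CTSS. NLRC5 and B2M had r = 0.48 and rho = 0.37 (permutation p = 0.00377 and 0.0342, the same when adjusted), which fell to r = 0.31 (p = 0.0936) without the 2 farthest libraries. That relation rested on the 2 WSD/CD animals with the highest NLRC5.

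**Figure D4:**
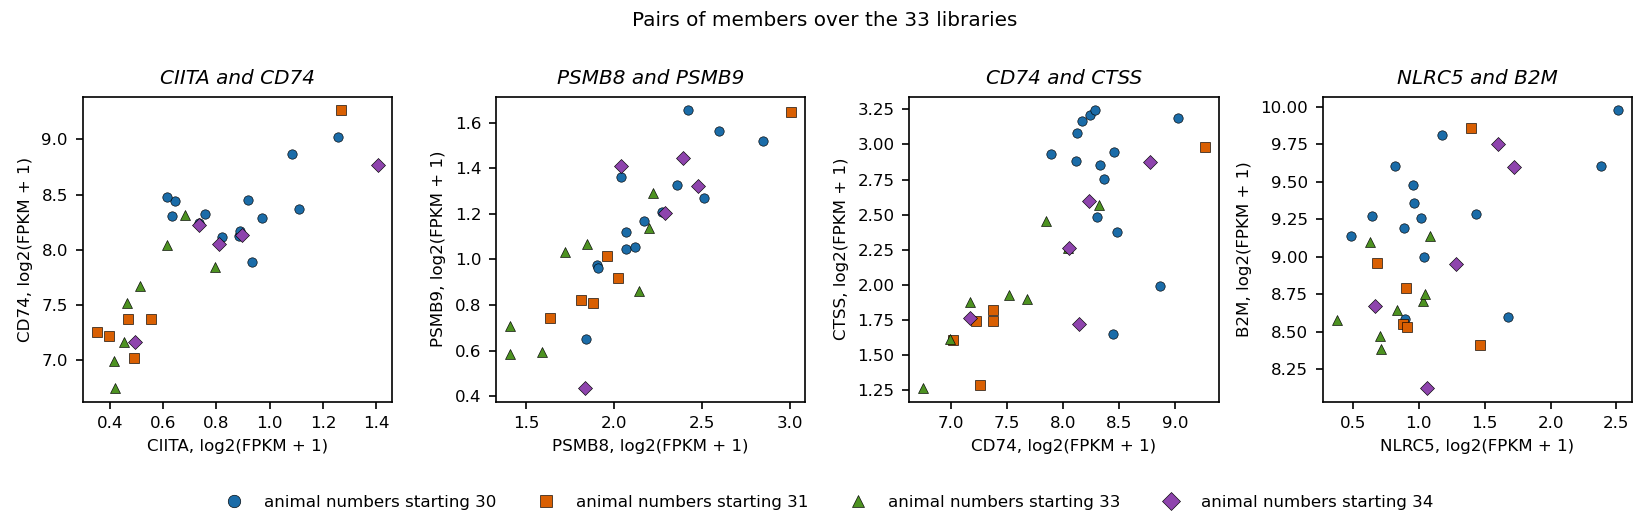
Levels of 4 pairs of members, as log2(FPKM + 1), over the 33 libraries (points, 1 per animal, colour and shape for the number series). PSMB8 and PSMB9 follow each other (r = 0.85 over all libraries, and 0.82, 0.98 and 0.81 within series 30, 31 and 33), CD74 and CTSS do not within series 30 (r = -0.31), and 2 animals lie far to the right for NLRC5. The series 31 value covers 6 animals, among them the high CD/CD replicate 5, and rho was 0.89 there.

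The immunoproteasome subunits were set against the constitutive subunits they replace. PSMB8 stood at a median of 25.98% of PSMB5 over the 33 libraries, PSMB9 at 121% of PSMB6 and PSMB10 at 111% of PSMB7, each as a ratio of FPKM. PSMB5, PSMB6 and PSMB7 themselves averaged 11.9, 0.999 and 1.72 FPKM. These ratios of RNA values do not measure proteasome content. The PSMB8 share had a lowest, median and highest value of 13.6%, 47.7% and 84.1% in WSD/CD livers, 14.6%, 26.6% and 33.97% in CD/WSD livers, 18.4%, 21.8% and 35.4% in WSD/WSD livers, and 11.1%, 23.2% and 49.9% in CD/CD livers. The highest PSMB8 shares were thus in WSD/CD, and within it in series 34 (18.4% to 84.1%, median 73.8%, n = 5). The median was 47.7% in series 30 (n = 2) and 18.7% in series 33 (n = 3). Both sides of the PSMB8 ratio differed between series 34 and 33: median PSMB8 was 3.89 FPKM in series 34 and 2.30 FPKM in series 33. PSMB5, PSMB6 and PSMB7 together had a median sum of 8.33 FPKM in series 34 and 14.3 FPKM in series 33. The part of each side in the share was not tested. The other ratios ordered the groups differently. PSMB9 reached its highest share of PSMB6 in WSD/WSD (352%, against 247% in WSD/CD), with the highest median in WSD/CD (138%). PSMB10 had its highest median share of PSMB7 in WSD/WSD (131%, against 119% in WSD/CD), with the highest single value in WSD/CD (279%). Over whole groups, PSMB5 was lower in WSD/CD livers, set against CD/CD livers (log2 -0.59, limma adjusted p = 0.0262). It was higher in WSD/WSD than in WSD/CD (0.57, adjusted p = 0.0105), while PSMB8 was called in neither. In WSD/WSD against CD/CD, 1 of the 3 constitutive subunits was also called lower, with 16.7% of tested genes called. With the mitochondrial share as a covariate no gene was called in WSD/CD against CD/CD.

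Some other genes of the pathways were called in the diet comparisons where the members were not, at shares near or below those of all tested genes. In WSD/CD against CD/CD, 1 of 13 other class I genes, the loading chaperone CALR (log2 -0.58, limma adjusted p = 0.0351), and 1 of 10 other class II genes, the lysosomal protease LGMN (-0.73, adjusted p = 0.0482), were lower and 0 higher. Of all tested genes 9.55% were called in that comparison. Of the hepatocyte markers 4 of 7 were also lower in that comparison, and of the stellate cell markers 6 of 8 and of the mitochondrially encoded genes 4 of 12 were higher. With the mitochondrial share as a covariate 0 of all tested genes were called, CALR and LGMN among those lost. Of 24 interferon response genes IFI27 was higher (0.62, adjusted p = 0.036) and BST2 lower (-0.53, adjusted p = 0.0296), with 19 of the 24 estimates positive. In WSD/WSD against CD/CD 1 of 13 class I genes, MAMU-E, was higher (1.17, adjusted p = 0.0146), with 0 of 10 class II genes called. Of all tested genes 16.7% were called there. Endothelial markers PECAM1 (1.11, adjusted p = 0.0353) and CDH5 (1.30, adjusted p = 0.0182) were higher there too, and the Kupffer cell markers VSIG4 (-1.37, adjusted p = 0.00898) and CD14 (-0.65, adjusted p = 0.0352) lower, while the other 8 of 10 tested Kupffer cell markers had positive estimates that were not called (median of the 10, 0.26). IFI6 was the only interferon response gene of 24 called there, and it was higher (adjusted p = 0.0327). In WSD/WSD against WSD/CD, 5 of 13 class I genes were higher, namely ERAP1 (1.05, adjusted p = 0.00213), CALR (0.82, adjusted p = 0.0019), CANX (0.68, adjusted p = 0.00608), the loading oxidoreductase PDIA3 (1.03, adjusted p = 0.00494) and MAMU-E (0.82, adjusted p = 0.0295). LGMN (1.02, adjusted p = 0.00337) and CTSL (0.37, adjusted p = 0.034) were the class II genes called there, against 44% of all tested genes, and of the hepatocyte markers 5 of 7 were higher, of the neutrophil markers 3 of 3 higher and of the stellate cell markers 5 of 8 lower. Mitochondrially encoded genes were lower for 10 of 12 (median -1.10), endothelial markers higher for 3 of 8 and cholangiocyte markers lower for 2 of 4. With the mitochondrial share as a covariate 12 genes were called in all. Of the shared regulators RFXAP (0.43, adjusted p = 0.00563) and CREB1 (0.38, adjusted p = 0.0137) were among those higher, and of 24 interferon response genes 0 were called. CD/WSD against CD/CD, WSD/WSD against CD/WSD and the interaction called 0 genes of either list. The part of the shifting markers in these values was not tested.

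The genes most like the members in pattern were found by Spearman's rho over the 33 libraries with the mean z score of the members. For the 5 class I members these were LAPTM5 (rho 0.84), CD300A (0.84), CDC25B (0.84), RAP1B (0.82) and ADGRE5 (0.82), where the median over eligible genes was near 0. For the 3 class II members they were MYO1F (0.93), CFD (0.92), PIK3CD (0.92), GPR65 (0.91) and CD300A (0.91), with a median of 0.06 over eligible genes. CD300A was on both lists. These values share library depth and cell makeup and are given as a description.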

How the data were processed

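Total RNA of liver was sequenced as strand-specific mRNA libraries with paired reads, per the labels. GSNAP, Cufflinks and SAMtools are named in the submitters' processing notes, and no build was stated there or in the labels. The authors deposited FPKM values per gene and library. The value 999999999, present for 15 genes, was treated as missing and those genes were left out. Columns were matched to samples by animal number, and no 2 libraries were identical.

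From the deposited FPKM, log2(FPKM + 1) was tested with limma 3.58.1 in R 4.3.3 (intensity trend, 4 group means, 33 libraries, 29 residual degrees of freedom) and adjusted by Benjamini-Hochberg over the 12497 genes whose FPKM averaged 0.5 or more, calling adjusted p under 0.05. Fold changes on this scale understate changes of low genes, CIITA, PSMB9 and NLRC5 in particular. The gene test was tested on simulated data. No counts were given, so the depth behind a value is known only roughly, and p-values take the animals as independent samples.

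The text names all members, up to 4 called genes with the largest moderated t from each other list, and the 5 genes most like the members. CANX and CTSL in the series comparison and MAMU-E in WSD/WSD against WSD/CD fell outside that rule and were named after their values were seen, to account for the whole count. Members and lists were chosen with earlier results of these data known. Alternatives covered the pseudocount, the filter, scaling, sample weights, covariates, number series and leaving out libraries. RefSeq names and gene order came from another macaque assembly, and its coordinates served only to order the genes. The values of 1 gene are not reported here.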

Additional observations from a re-analysis of the deposited data

Results flagged for a closer look

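B2M in CD/CD replicate 5, at 927 FPKM, lay further from the next CD/CD animal (623 FPKM) than the spread of the group allows by Dixon's criterion. It was the only such value in 32 tests of a member in a group, and chance flags about 1 in 20.

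For 4 members the estimated postweaning effects of number series 30 and 31 lay apart, given as the log2 difference of the effects, series 30 minus series 31, by limma with the adjusted p over all tested genes. It was 2.24 for CTSS (adjusted p = 0.000207), 1.69 for CD74 (adjusted p = 0.000455), 1.73 for B2M (adjusted p = 0.00384) and 0.91 for CIITA (adjusted p = 0.00283). All 4 rest on CD/CD replicate 5, the only CD/CD animal of series 31 and the one with the high B2M above. The comparison was added after the data had been seen, and with 1 animal in that arm it does not show a difference between the series.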

How the results depend on the processing

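The count of members called was 0 in each diet comparison and differed under these alternatives. It was 1 for WSD/CD against CD/CD within series 30. It was 2 for CD/WSD against CD/CD with sample weights (B2M 0.48 and CTSS 0.69, higher, with 42.4% of tested genes called), 2 with number series as a factor (both lower) and 1 within series 30. It was 2 for WSD/WSD against CD/CD with sample weights (B2M 0.52 and CTSS 0.68, higher, with 39.3% called), 2 with number series as a factor (both lower) and 2 within series 30. For WSD/WSD against WSD/CD it was 1, always NLRC5 and lower, with median-of-ratios scaling (-0.62), quantile normalization (-0.61), sample weights (-0.54), the number series added as a factor (-1.02), and series 30 alone (-1.55), each with 35.5% to 46.8% of tested genes called, and 0 to 1 on leaving out each library. B2M and CTSS are thus called higher, and NLRC5 and CD74 lower, only under some of the alternatives, and the cause was not tested. Of 672 values of the 48 diet fold changes under alternatives 18 were called and 137 had the other sign, of which 0 were called. Some correlations were lost or turned within single series. As deviations from the series means over all 33 libraries, r was 0.78 for CIITA and CD74 and 0.55 for CD74 and CTSS. NLRC5 and B2M had r = 0.41 and a rho of 0.32 on that scale, and r = 0.63 with median-of-ratios scaling. CIITA and CD74 had r = 0.44 in series 30 and 0.97 in series 31, with a rho of 0.49 in series 31. CD74 and CTSS had r = -0.31 in series 30 and 0.95 in series 31, with a rho of 0.60 in series 31. NLRC5 and B2M had r = 0.31 without the 2 farthest libraries, 0.37 in series 30, 0.27 in series 31 and 0.37 in series 33. In series 30 against 31 among animals weaned to WSD, 4 to 6 members were called on leaving out each animal. Of the 12497 tested genes 2278 to 3649 were called in those fits. Pairs with TAP1 or TAP2 were not run. No paired analysis was possible because the labels give no replicate numbers shared between groups. FPKM without counts limits the precision of the low members.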
